A study of Anopheles gambiae with 16 samples.

Results

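The array carried 1938 mosquito probe sets whose IDs begin with Ag.UNKN., out of 16884 whose IDs begin with Ag., and these 1938 were described here across the tissues of adult female Anopheles gambiae, the main malaria mosquito of Africa. They were taken by the start of the ID alone, with no measured value, and the other 14946 Ag. probe sets, which name the X chromosome or an autosome arm (together called the arms here), served as background. A probe set is a group of short oligonucleotides on the array that report 1 transcript as a single intensity. In the published genome of this mosquito, UNKN is the name given to assembled sequence that could not be placed on a chromosome arm. Such sequence is known to be rich in repeats and heterochromatin, and in this genome it also holds second copies of placed regions, because the sequenced colony carried divergent haplotypes. Gene predictions on it are therefore less certain than those on the arms. The reading of the ID as this part of the genome is background knowledge and is recorded in none of the sources used here. The files pair no ID with a gene, and looking the 16884 IDs up among the 15165 genes of a RefSeq table for this mosquito gave 0 matches, so the probe sets are described by their IDs and no function is given to any of them.

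All 16 arrays came from females of the G3 strain at 1 to 2 days of adult life, with 4 arrays in each of 4 groups. The titles number the arrays of each group as biological replicates 1 to 4. Circulating hemocytes, the blood cells of the insect, were drawn with the hemolymph through the clipped proboscis, and the labels disagree on whether a pool held 500 or 1000 females and call these females both naive and infected. Heads came from pools of 40 females and carcasses, the bodies left after bleeding and removal of the head, from pools of 20. RNA of hemocytes, heads and 1 group of carcasses was labelled with 2 rounds of amplification from 80 ng, and the other carcass group with 1 round from 1000 ng. The titles do not say whether same-numbered arrays of the 2 carcass groups share a pool. Those arrays deviated together, while the main model took them as independent. Hemolymph was dripped straight into a column lysis buffer, without the Trizol step that the other tissues went through, so the hemocyte comparisons cannot be told apart from the extraction method. The source name of head replicate 4 speaks of carcasses while its other labels say head, and it was kept as a head. Each tissue is a mixture of cell types, so a higher share of expressing cells and more RNA per cell cannot be told apart. The tissue labels could not be checked with marker genes, since no ID is paired with a gene.

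The Ag.UNKN. IDs differed in make-up from those of the arms. The mark CDS, for a coding sequence, stood in 1803 (93% against 82% of the other Ag. IDs), the mark UTR in 16 (0.826% against 5.18%) and neither in 119 (6.14% against 12.8%). The endings of the IDs follow the array maker's convention, in which _at stands for oligonucleotides unique to a transcript, _a_at for those shared by forms of a gene, and _s_at for those shared by transcripts of different genes. The ending _s_at was found on 379 Ag.UNKN. IDs, or 19.6%, against 6.66% of the others. The ending _a_at was found on 76, or 3.92%, against 21.8%. Values of an _s_at probe set can add up several transcripts, and 4 more members ended in _x_at, the mark for oligonucleotides that also match unrelated sequence.

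Fewer of the Ag.UNKN. probe sets gave signal than of the rest, on every array. Background was set for each array at the 95th percentile of the probe sets of the malaria parasite on the same array, and it lay between 8.83 and 15.28 intensity units. In hemocytes 40.92%, 41.12%, 40.56% and 41.43% of the Ag.UNKN. probe sets lay above it in replicates 1 to 4. In heads the shares were 44.43%, 42.83%, 41.23% and 41.38%, in two-round carcasses 38.39%, 39.16%, 40.35% and 39.94%, and in one-round carcasses 40.92%, 38.75%, 43.96% and 41.85%. The other Ag. probe sets stood between 61.98% and 73.84% on all 16 arrays, so the ranges did not overlap, and the gap was 21.43 to 29.88 percentage points. The median intensity of the Ag.UNKN. probe sets was 6.04 to 10.57 per array, which is below that array's background, against 21.72 to 30.32 for the others. Intensities of different probe sets also depend on their oligonucleotides, so these medians describe the lists and do not order transcripts by abundance.

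**Figure D1:**
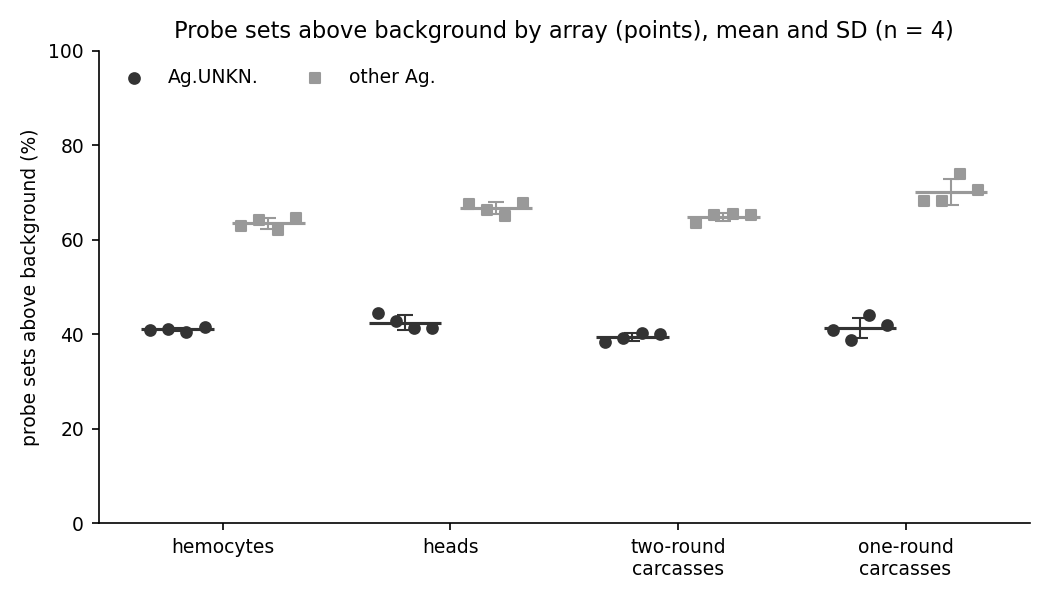
Share of probe sets above background on each array, for Ag.UNKN. probe sets (dark circles) and all other Ag. probe sets (grey squares), with the mean and SD of the 4 arrays of each group. The Ag.UNKN. shares lie between 38.39% and 44.43%, below every share of the other probe sets (61.98% to 73.84%), and differ little between tissues.

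Counted over arrays, 306 Ag.UNKN. probe sets (15.8%) were above background on all 16, against 38.5% of the others, and 400 (20.6%) on none, against 7.78%. In between, 473 (24.4%) were above it on only 1 to 3 arrays, against 12%. All 4 arrays of a tissue and labelling exceeded background for 509 in hemocytes, 519 in heads, 478 in two-round carcasses and 485 in one-round carcasses, or 24.7% to 26.8%, where the other Ag. probe sets reached 50.6% to 57.2%. The shortfall lay with the CDS probe sets, of which 943 of 1803 (52.3%) were above background on at least 4 arrays against 77.8% of the other CDS probe sets. Of the 119 unmarked Ag.UNKN. probe sets 106 (89.1%) were, against 88.9% of the other unmarked ones, and all 16 UTR members were, against 98.1%. Among endings, 49.4% of the _at members were above background on at least 4 arrays against 77.5%, 69.7% of the _s_at members against 82.1%, and 88.2% of the _a_at members against 88.7%.

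The number that follows UNKN in the ID, read here as a transcript cluster, went along with the signal, a split that was made after the values were seen. Of the 150 probe sets with numbers from 4 to 198, 91.3% were above background on at least 4 arrays and 64.7% on all 16, against 86.4% and 51.4% of the probe sets of the arms with numbers under 200. Of the 145 with numbers from 200 to 399, 73.8% and 31% were, against 94.7% and 69.4% on the arms. The 1555 with numbers from 400 to 2198, of which 1544 are CDS probe sets, make up most of the list, and 47.7% of them were above background on at least 4 arrays and 7.78% on all 16. On the arms, the probe sets from number 400 to the last CDS number of the arm had 76.9% and 31.2%. The 88 with numbers from 2201 to 2704 are all unmarked, and 90.9% and 48.9% of them were above background, against 90.1% and 59.7% of the 1160 probe sets that follow the last CDS number on the arms, which are all unmarked too. The Ag.UNKN. list thus fell below the arms at numbers from 200 to 2198, and over at least 4 arrays its first and last stretches were no lower than their counterparts on the arms.

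**Figure D2:**
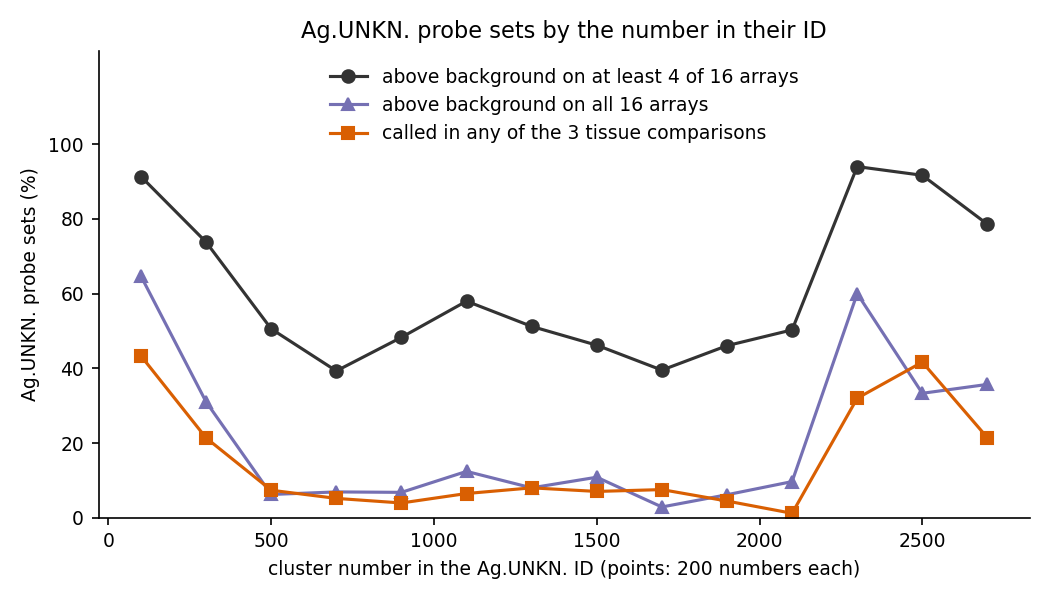
Shares of Ag.UNKN. probe sets above background on at least 4 or on all 16 arrays, and called in any of the 3 tissue comparisons, by the number in the ID in steps of 200. All 3 shares are highest below 200 and from 2200 on, and the share called is at most 8.03% in every step from 400 to 2199.

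Tissue differences were tested with 1 limma model over the 4 groups on log2(intensity + 16), fitted to all 16884 Ag. probe sets, and a probe set was called where it passed both a Benjamini-Hochberg adjusted p of 0.05 and 2-fold on this scale. Between hemocytes and two-round carcasses 76 Ag.UNKN. probe sets were called higher in hemocytes (3.92%; 10.7% of all Ag. probe sets) and 57 lower (2.94%; 8.17% of all). Between hemocytes and heads 74 were called higher in hemocytes (3.82%; 11.1% of all) and 71 lower (3.66%; 9.30% of all). Between heads and two-round carcasses 47 were called higher in heads (2.43%; 5.02% of all) and 30 lower (1.55%; 4.67% of all). Either way, the calls came to 133 (6.86%; 18.9% of all), 145 (7.48%; 20.4% of all) and 77 (3.97%; 9.69% of all). The arrays of the 2 tissues did not overlap for 320 members (16.5%; 33.5% of all) between hemocytes and two-round carcasses, for 316 (16.3%; 32.5% of all) between hemocytes and heads, and for 246 (12.7%; 21.7% of all) between heads and two-round carcasses. In all, 214 Ag.UNKN. probe sets (11%) were called in at least 1 of these 3 comparisons, against 27.7% of all Ag. probe sets. The median log2 differences of the list were 0.01, -0.02 and 0.03, beside 0.06, 0.00 and 0.05 over all Ag. probe sets. Most members lay below background on each array, and adding 16 before the log holds such differences near 0. The medians of the list thus cannot show whether its transcripts were shifted as a whole. The counts were 36 to 144 higher and 34 to 103 lower in hemocytes than in carcasses when the pseudocount was 64 or 1 in place of 16. Without head replicate 4, whose labels conflict, hemocytes had 75 calls above and 76 below heads, and heads had 54 above and 26 below two-round carcasses.

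The lower share of calls went along with the lower signal. When all Ag. probe sets were placed in 4 bins of equal size by their mean over the 16 arrays, 919 of the 1938 Ag.UNKN. probe sets (47.4%) fell into the dimmest bin and 189 (9.75%) into the brightest. In the dimmest bin 0.109% of the members and 0.182% of the others were called between hemocytes and two-round carcasses. In the brightest bin 38.1% of the members and 45.5% of the others were called, with 16.3% and 25.5% in the bin below it. Between hemocytes and heads the brightest bin had 40.7% and 46.5%, and between heads and two-round carcasses 18% and 19.6%. The shares of members were thus nearest, in proportion, to those of the others among bright probe sets, and below them in each bin of each of the 3 tissue comparisons. The spread between arrays of a group was about the same in both lists, with median SDs of 0.327 and 0.318 on the log2 scale in the brightest bin. In hemocytes relative to two-round carcasses the unmarked members were called at rates near those of other unmarked probe sets, with 12.6% up and 10.9% down against 11.3% and 9.56%. The CDS members were at 3.33% and 2.27% there, against 11.5% and 8.14%. In hemocytes relative to heads the unmarked members were at 9.24% up and 11.8% down, against 10.7% and 14.7%. In heads relative to two-round carcasses they were at 7.56% and 4.2%, against 11.5% and 4.7%. Between hemocytes and two-round carcasses 8.71% of the members ending in _s_at were called higher and 6.86% lower, against 13% and 12.6% of the others with that ending. Of the members ending in _at 2.1% were called higher and 1.62% lower, against 10.8% and 7% of the others. Of the members ending in _a_at 14.5% were called higher and 9.21% lower, against 13.81% and 13.75% of the others. In both lists the _s_at ending thus had higher shares than _at and lower shares than _a_at. These differences were not tested, and the part of sequence shared with other loci was not tested.

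**Figure D3:**
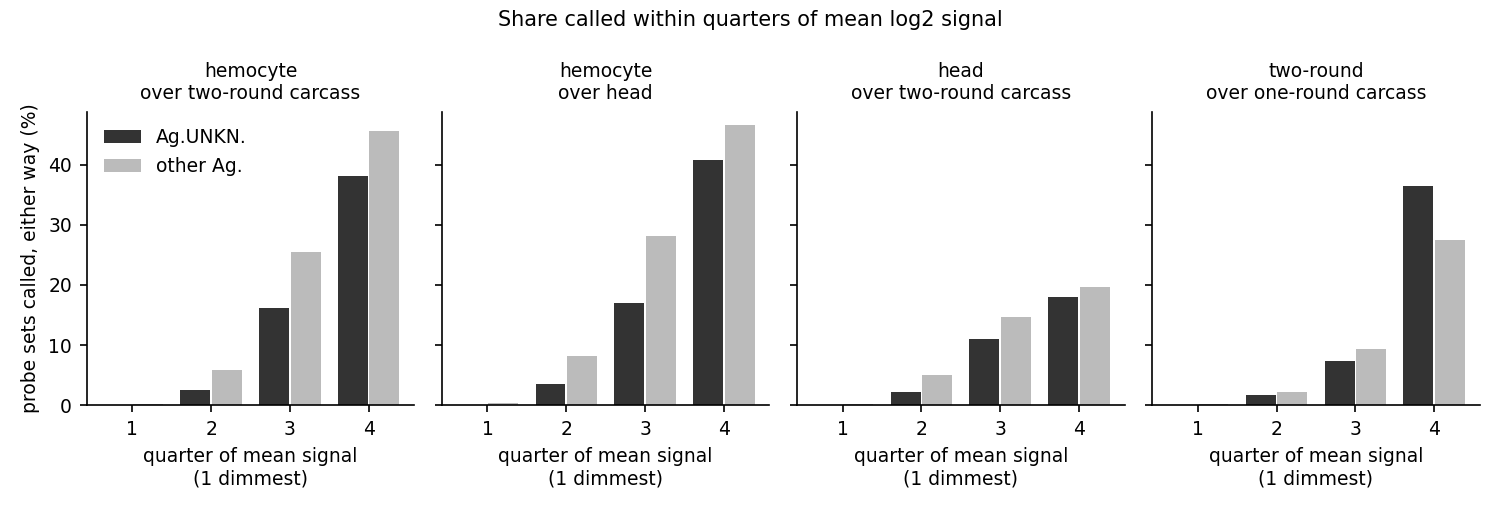
Share of Ag.UNKN. (dark) and other Ag. (grey) probe sets called in either direction, in 4 bins of mean log2 signal from dimmest (1) to brightest (4), for the 4 comparisons. Calls rise with signal in both lists, and the Ag.UNKN. bar is the lower one in every bin of the 3 tissue comparisons but the higher one in the brightest bin of the labelling comparison (36.5% against 27.6%).

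Hemocytes exceeded heads and two-round carcasses at 48 Ag.UNKN. probe sets (2.48%; 8.03% of all), led by 2 of the same number. At least 16-fold higher were 3 members relative to carcasses (0.155%; 0.166% of all) and 4 relative to heads (0.206%; 0.302% of all). Ag.UNKN.1005.1_at measured 5643, 3799, 8135 and 8233 in hemocytes, against 195.1, 152, 78.54 and 109.6 in heads and 151.5, 82.66, 58.6 and 238.6 in two-round carcasses. No hemocyte array came near an array of another tissue. The log2 difference was 5.54 ± 0.37 over carcasses (SE, limma adjusted p = 7.7e-09) and 5.43 ± 0.37 over heads (limma adjusted p = 1.1e-08), which is 53.5-fold and 48.7-fold in geometric means. The second probe set with that number, Ag.UNKN.1005.0_CDS_s_at, measured 3867 ± 1137 in hemocytes (SD, n = 4), 151.7 ± 63.6 in heads and 122.4 ± 77.86 in two-round carcasses. It was higher by 4.92 ± 0.36 and 4.57 ± 0.36 on the log2 scale (limma adjusted p = 2.9e-08 and 6.5e-08). Both carry 1 number and correlated at 0.988 across the 16 arrays, so they are not independent evidence.

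A smaller hemocyte signal was seen at Ag.UNKN.370.0_CDS_at, which measured 48.25, 50.9, 36.3 and 62.76 in hemocytes. Its highest values were 11.56 in heads and 10.05 in two-round carcasses, all of them below background. It was at least 3.61-fold higher than in heads and at least 3.46-fold higher than in carcasses, where background stands in for the lower values (limma adjusted p = 1.1e-05 and 9.1e-06). With a pseudocount of 64 it fell short of a 2-fold change in both comparisons. It was 1 of 4 Ag.UNKN. probe sets above background on all hemocyte arrays and on none of the 8 other two-round arrays (0.206%; 0.243% of all). The others were Ag.UNKN.1536.0_CDS_s_at at 17.43 ± 2.173, Ag.UNKN.436.0_CDS_at at 25.05 ± 7.967 and Ag.UNKN.923.0_CDS_at at 23.15 ± 7.086 in hemocytes. Of these, Ag.UNKN.436.0_CDS_at was called higher in hemocytes than in carcasses and heads, by 1.042 and 1.033 on the log2 scale, just over the limit. Ag.UNKN.1536.0_CDS_s_at and Ag.UNKN.923.0_CDS_at did not reach the threshold. Ag.UNKN.436.0_CDS_s_at, with the same number as Ag.UNKN.436.0_CDS_at, was above background on 2 arrays, with differences of 0.24 and 0.073. Those beside Ag.UNKN.370.0_CDS_at were named because the count was small, after their values were seen.

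Lower in hemocytes than in both other tissues were 31 Ag.UNKN. probe sets (1.6%; 4.76% of all), and for several the difference was large. At least 16-fold lower than in two-round carcasses were 13 (1.54% of all Ag. probe sets; 0.671% of the members) and at least 16-fold lower than in heads were 7 (1.05% of all; 0.361% of the members). Ag.UNKN.848.0_CDS_s_at measured 21.22, 14.63, 2.583 and 6.723 in hemocytes, with 2 arrays above background, against 85.29, 173.4, 143.2 and 74.26 in heads and 1805, 2021, 1915 and 1923 in two-round carcasses. Its 3 tissues did not overlap, with log2 differences of -6.20 ± 0.24 for hemocytes over carcasses (SE, limma adjusted p = 1.5e-11) and -2.29 ± 0.24 for hemocytes over heads (limma adjusted p = 1e-06). With values below background raised to it, hemocytes were at least 128-fold lower than carcasses. It also differed between the labellings, at 1916 ± 88.27 after 2 rounds and 7491 ± 905.4 after 1 round (log2 difference -1.95 ± 0.24, limma adjusted p = 2.9e-05).

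The probe sets with the largest falls in hemocytes relative to heads were bright in both heads and carcasses. Ag.UNKN.58.0_CDS_at measured 9.857, 15.71, 25.48 and 37.61 in hemocytes, against 827.5, 1734, 1731 and 1735 in heads and 1016, 1255, 1165 and 1324 in two-round carcasses. It was bright in heads and carcasses and near background in hemocytes, where 3 of 4 arrays exceeded it, with log2 differences of -5.31 ± 0.26 to heads (limma adjusted p = 4.4e-10) and -5.03 ± 0.26 to carcasses (limma adjusted p = 4.9e-10). Ag.UNKN.86.1_s_at measured 173.2, 89.78, 256.5 and 485 in hemocytes, against 8773, 7531, 6499 and 6093 in heads and 7983, 6545, 4309 and 8067 in two-round carcasses. It was 34.1-fold lower in hemocytes than in heads and 31.1-fold lower than in carcasses (limma adjusted p = 2.3e-08 and 3.1e-08). Heads and carcasses overlapped at both probe sets, with log2 differences of 0.28 ± 0.26 and 0.13 ± 0.36 that did not pass (limma adjusted p = 0.55 and 0.87).

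Heads exceeded hemocytes and two-round carcasses at 28 Ag.UNKN. probe sets (1.44%; 3.60% of all) and fell below both at 13 (0.671%; 1.55% of all). Ag.UNKN.136.1_CDS_a_at led the rises with 1324, 1114, 1135 and 1095 in heads, against 106.5, 129.8, 152.7 and 123.7 in two-round carcasses, while hemocytes measured 155.5, 180.9, 234 and 221.7. At least 16-fold differences between heads and two-round carcasses were 0 rises (0.00592% of all) and 6 falls (0.729% of all). Each head array of Ag.UNKN.136.1_CDS_a_at exceeded every array of the other tissues, by 9.16-fold over carcasses (log2 difference 3.04 ± 0.18 SE, limma adjusted p = 4e-09). The log2 difference of hemocytes over heads was -2.48 ± 0.18 (limma adjusted p = 2.2e-08). Ag.UNKN.268.0_CDS_at measured 210.4, 149.1, 91.99 and 121.4 in heads, against 39.78, 2.228, 4.429 and 16.25 in two-round carcasses, of which 2 arrays were above background, and 3.475, 1.655, 7.803 and 29.43 in hemocytes, of which 1 was. It was higher in heads than in carcasses by 2.42 ± 0.42 on the log2 scale (limma adjusted p = 0.00047), and at least 7.49-fold with background as the floor.

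Above background on all head arrays and on none of the 8 other two-round arrays were 4 Ag.UNKN. probe sets (0.206%; 0.201% of all). Ag.UNKN.193.0_CDS_s_at had the highest mean, 64.14 ± 44.07, with 130 in replicate 1 and 39.1 to 48.09 in the other heads. It was at least 4.35-fold higher than in hemocytes and at least 3.97-fold higher than in two-round carcasses (limma adjusted p = 2.2e-05 and 0.00023), and it fell short of a 2-fold change with a pseudocount of 64. After 1 round, however, carcasses measured 21.1 ± 8.05 and were above background on all 4 arrays. Background was lower there, at 8.83 to 10.02 against 12.83 to 15.28 in two-round carcasses, and one-round replicate 4 measured 10.62. The log2 difference of two-round over one-round carcasses was -0.68 ± 0.27 and did not pass (limma adjusted p = 0.086). The others were Ag.UNKN.1675.0_CDS_at at 44.52 ± 13.01, Ag.UNKN.1759.0_CDS_s_at at 38.94 ± 18.36 and Ag.UNKN.1542.0_CDS_at at 19.83 ± 3.523 in heads, of which the last was not called against either tissue. Leaving out an array can only keep or raise this count of 4. It became 7 without head replicate 4, whose source name speaks of carcasses, and 6 without head replicate 3 or without two-round carcass replicate 2.

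Higher in two-round carcasses than in hemocytes and heads were 16 Ag.UNKN. probe sets (0.826%; 2.86% of all), and lower than in both were 5 (0.258%; 0.450% of all). Ag.UNKN.68.0_CDS_at measured 1.579, 8.281, 1.628 and 10.02 in hemocytes, all below background, and 16.44, 23.19, 14.48 and 14.74 in heads, all slightly above it, against 1048, 1647, 809.7 and 1223 in two-round carcasses. Hemocytes were at least 89.2-fold lower than carcasses (log2 difference -5.79 ± 0.20 SE, limma adjusted p = 5.9e-12), and heads were 67.7-fold lower (-5.13 ± 0.20, limma adjusted p = 2.9e-11). One-round carcasses measured 907.8 ± 134.2, so the probe set was bright after both labellings, and their log2 difference of 0.34 ± 0.20 did not pass (limma adjusted p = 0.28). Ag.UNKN.7.0_CDS_at measured 3.056, 4.072, 4.289 and 15.26 in heads, with replicate 4 alone above background, against 1458, 1178, 767.3 and 1123 in two-round carcasses. Heads were at least 78.3-fold lower (log2 difference -5.66 ± 0.19, limma adjusted p = 5.7e-12). In hemocytes it held a narrow middle level of 31.41 to 40.8, above every head array (log2 difference over heads 1.20 ± 0.19, limma adjusted p = 8.3e-05).

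Only 3 Ag.UNKN. probe sets were above background on all 4 two-round carcass arrays and on none of the hemocyte and head arrays (0.155%; 0.492% of all). Ag.UNKN.2560.0_at measured 372.9, 340.7, 481.9 and 490.1 there, against 0.2842 to 7.856 in hemocytes and 0.2785 to 0.5801 in heads. Hemocytes were at least 32.5-fold lower and heads at least 30.9-fold lower than carcasses (limma adjusted p = 3.5e-10 and 4.4e-10). Its one-round value was lower, at 104.8 ± 49.82, and the labellings differed by 1.93 ± 0.23 on the log2 scale (limma adjusted p = 2.8e-05). The others were Ag.UNKN.67.0_CDS_s_at, at 319.1 ± 106 after 2 rounds and 299.4 ± 55.74 after 1 round, and Ag.UNKN.96.1_CDS_a_at, at 121.3 ± 74.43 and 90.45 ± 55.66. Both were called lower in hemocytes and in heads than in carcasses. For Ag.UNKN.96.1_CDS_a_at the log2 differences were -2.51 and -2.485. Ag.UNKN.96.0_CDS_a_at, with the same number, had -0.795 and -0.8, under the 2-fold limit. The count of 3, which leaving out an array can only keep or raise, rose to 7 without two-round carcass replicate 3 and to 6 without replicate 4.

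**Figure D4:**
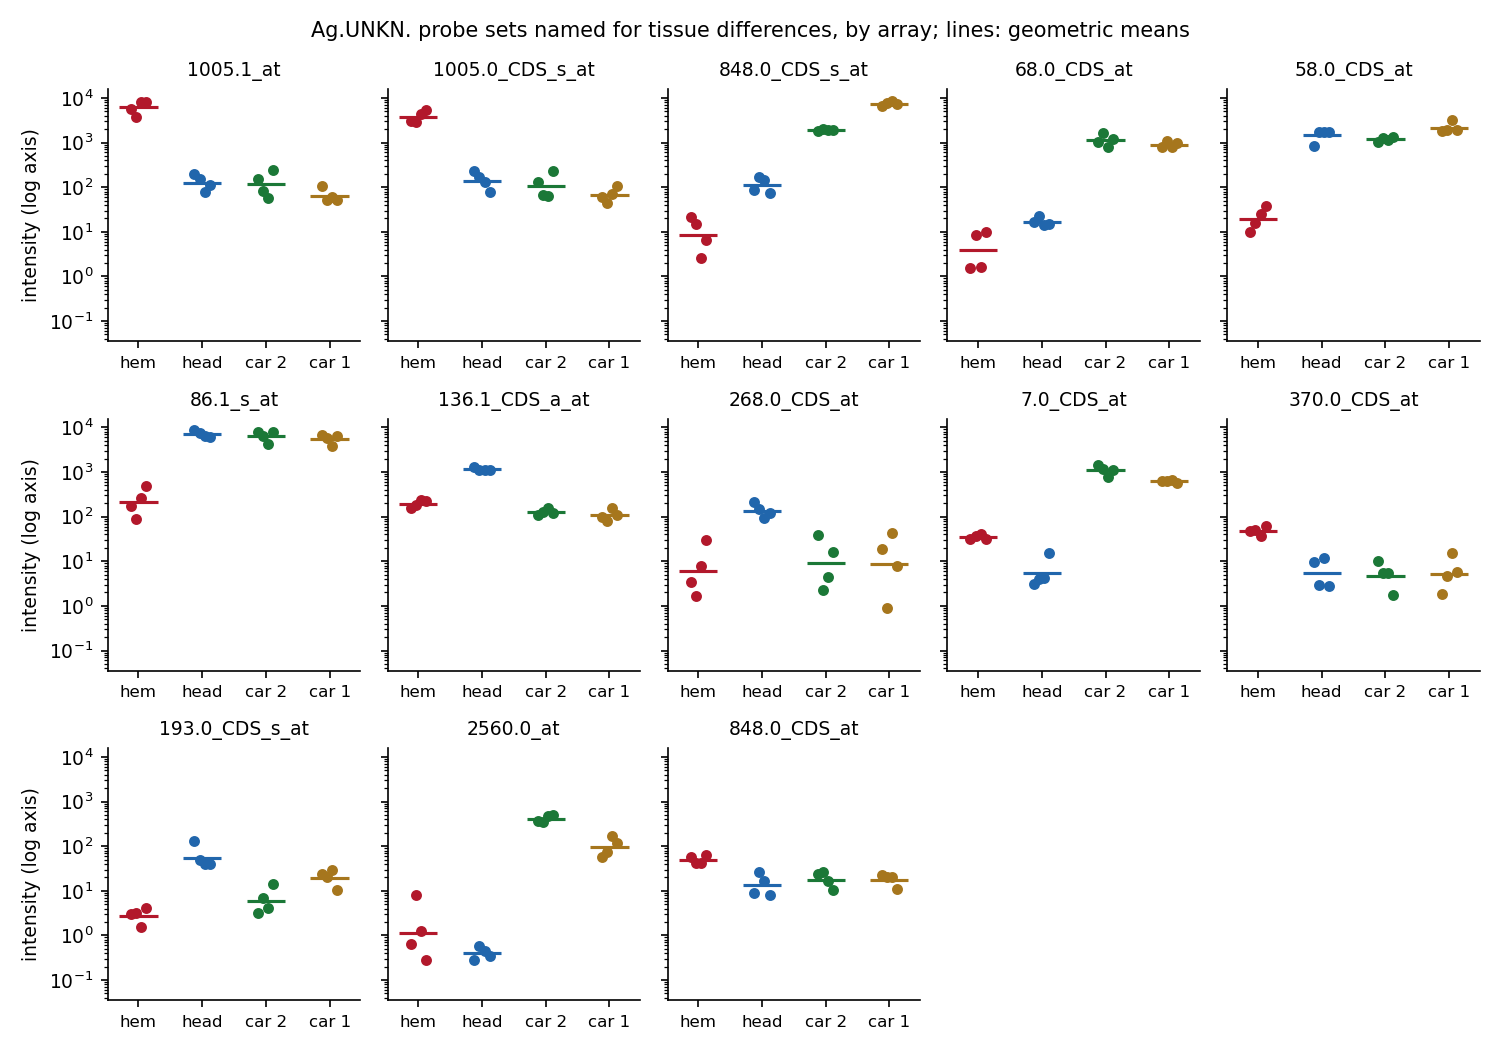
Intensity of 13 Ag.UNKN. probe sets on each array (points, log axis) with geometric means (lines), for hemocytes (hem), heads (head), two-round carcasses (car 2) and one-round carcasses (car 1). The panels show signals high in hemocytes (Ag.UNKN.1005.1_at and Ag.UNKN.1005.0_CDS_s_at), low in hemocytes (Ag.UNKN.58.0_CDS_at and Ag.UNKN.86.1_s_at), high in heads (Ag.UNKN.136.1_CDS_a_at) and high in carcasses (Ag.UNKN.68.0_CDS_at, Ag.UNKN.7.0_CDS_at and Ag.UNKN.2560.0_at).

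Of the 306 Ag.UNKN. probe sets above background on all 16 arrays, 114 (37.3%) were called in at least 1 tissue comparison, against 46.2% of the other Ag. probe sets that were above background throughout. The remaining 192 were called in none of the 3, which does not show that their levels were equal.

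Most Ag.UNKN. clusters held a single probe set. There were 1865 clusters, of which 67 had 2 probe sets and 3 had 3, so that 143 probe sets (7.38%) shared a cluster with another, against 23.4% on the arms. These give 76 pairs, against 2387 on the arms. Between hemocytes and two-round carcasses both probe sets of a pair were called in the same direction in 8 pairs and in opposite directions in 0, 1 alone was called in 16, and neither in 52. Between hemocytes and heads these numbers were 6, 1, 15 and 54, between heads and two-round carcasses 1, 0, 9 and 66, and between the carcass labellings 1, 1, 19 and 55. On the arms 15.5% of the pairs were called in the same direction, 0.168% in opposite directions and 19.7% through 1 probe set alone between hemocytes and two-round carcasses, where the Ag.UNKN. pairs had 10.5%, 0% and 21.1%. Between hemocytes and heads 7.9% of the Ag.UNKN. pairs and 17.8% of those on the arms were called in the same direction. These shares were 1.32% and 5.91% between heads and two-round carcasses, and 1.32% and 2.89% between the labellings. Calls through 1 probe set alone came to 19.7% and 19.5%, 11.8% and 12%, and 25% and 26% in these comparisons. Opposite calls were made in 1.32% of the Ag.UNKN. pairs and 0.419% of the pairs on the arms between hemocytes and heads, and in 1.32% and 1.8% between the labellings. With 76 pairs, such shares rest on single pairs. For hemocytes over two-round carcasses the median gap between the log2 differences of an Ag.UNKN. pair was 0.36, against 0.37 on the arms, and the largest was 7.14. That largest gap belonged to Ag.UNKN.848.0_CDS_s_at, described above. Beside it stands Ag.UNKN.848.0_CDS_at with the same number, which measured 57.72, 42.18, 41.87 and 62.46 in hemocytes, against 9.02, 25.97, 16.41 and 7.922 in heads and 23.22, 26.04, 16.5 and 10.21 in two-round carcasses, with 4, 2 and 3 arrays above background. It was thus highest in hemocytes, where its partner was lowest. For hemocytes over heads it was called higher by 1.15 ± 0.20 (limma adjusted p = 0.00027) while its partner was called lower by the -2.29 given above, the one pair of 76 with opposite calls there. Over carcasses it was higher by 0.95 ± 0.20, just under the 2-fold limit (limma adjusted p = 0.0015). The pair with opposite calls between the labellings was Ag.UNKN.147.0_CDS_at, higher after 2 rounds by 1.20, and Ag.UNKN.147.1_CDS_a_at, lower at -1.01 on the log2 scale (limma adjusted p of 0.00238 for one and 0.00555 for the other), and both lay above background on all 16 arrays. This pair was named after its values were seen.

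The largest differences in the whole list lay between the carcass labellings and not between tissues. Labelling starts from the poly(A) tail, and a second round of amplification is primed at random within the first copies, which is known to shorten the products towards the 3' end. Two-round carcasses had 76 Ag.UNKN. probe sets called higher than one-round carcasses (3.92%; 7.29% of all) and 23 called lower (1.19%; 2.61% of all). In either direction 99 were called (5.11%; 9.89% of all), and the arrays of 293 did not overlap (15.1%; 23.7% of all). With quantile normalization the split was 43 higher and 40 lower, and with median centring 55 and 28. The median log2 difference of all Ag. probe sets was 0.12 in this comparison, and that of the list was 0.11. Unmarked probe sets made up 28 of the 76 and 10 of the 23 calls beside 119 of the 1938 members. Of the unmarked members 23.5% were called higher, against 19.7% of the other unmarked probe sets, and 8.4% lower, against 2.56%, shares whose difference was not tested. The 28 include all 11 probe sets with the largest rises, described next, and the 10 include all 7 with the largest falls.

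At least 16-fold higher after 2 rounds were 11 Ag.UNKN. probe sets, which are all of the 11 such probe sets among the 16884 (0.0652%). The log2 differences of the 11 ran from 6.55 to 8.53 (limma adjusted p from 8.4e-14 to 1e-08), whereas the next member stood at 2.20 and the largest rise among the 14946 probe sets of the arms was 3.01. Ag.UNKN.2231.0_s_at measured 5198, 7331, 8611 and 7139 after 2 rounds, against 1.312, 1.356, 6.456 and 2.512 after 1 round, where all 4 arrays were below background. It was at least 725-fold higher (log2 difference 8.53 ± 0.25 SE, limma adjusted p = 1.5e-12). Ag.UNKN.2433.0_s_at measured 6701, 7359, 7583 and 8881 after 2 rounds, against 0.9077, 4.551, 9.294 and 10.95 after 1 round, with 1 array above background (log2 difference 8.43 ± 0.18, limma adjusted p = 8.4e-14). With values below background raised to it, the 11 were 154-fold to 750-fold higher, a lower bound for each one with an array below background.

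The 11 were alike in more than this difference, as was seen after they had been picked out by it. All are unmarked, 9 end in _s_at and 2 in _at, and their numbers lie in the stretch from 2201 on. All 44 of their values were above background in hemocytes, in heads and in two-round carcasses, at 1157 to 11820, 951 to 8774 and 1981 to 10180 units. In one-round carcasses the 44 values ran from 0.908 to 38.37 units, and 23 of them were above background, with 6, 3, 9 and 5 of the 11 above it on replicates 1 to 4. The tissues labelled in the same way differed far less. Of the 11, 2 were lower in hemocytes when these were set against two-round carcasses, 1 was higher and 1 lower when they were set against heads, and none was called between heads and two-round carcasses. The count of 11 was the same under each other pseudocount, scaling, filter, block, variance prior and choice of groups tried and without any single carcass array, and it fell to 2 when members ending in _s_at or _x_at were left out.

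In the other direction 7 Ag.UNKN. probe sets were at least 4-fold lower after 2 rounds (0.379% of all Ag. probe sets), with log2 differences between -3.35 and -2.17. Ag.UNKN.2248.1_s_at measured 55.02, 73.48, 96.98 and 71.26 after 2 rounds, against 1126, 711.6, 1027 and 774.9 after 1 round (log2 difference -3.35 ± 0.21, limma adjusted p = 3.1e-08). Ag.UNKN.2219.0_s_at measured 23.77, 25.09, 19.85 and 36.12 after 2 rounds, against 363.6, 358.2, 509.9 and 342.6 after 1 round (log2 difference -3.27 ± 0.21, limma adjusted p = 5.5e-08). At both, heads and hemocytes lay close to two-round carcasses, with means of 69.65 and 30.8 in hemocytes and 76.85 and 30.72 in heads. All 7 are unmarked, 6 end in _s_at, and none overlapped between the labellings. Falls of this size were also found on the arms, in 57 probe sets and to a log2 difference of -3.66. The 11 and 5 of the 7 stand in the same stretch of the list, the 88 probe sets numbered from 2201 on. There 31 (35.2%) were called between the labellings, against 27.2% of the 1160 that follow the last CDS number on the arms. The 31 include these 11 and 5, which were picked by the same difference. The share is thus no separate evidence about the stretch. The 4 same-numbered pairs of carcass arrays deviated together, and with this pairing in the fit 77 Ag.UNKN. probe sets were called higher and 23 lower.

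**Figure D5:**
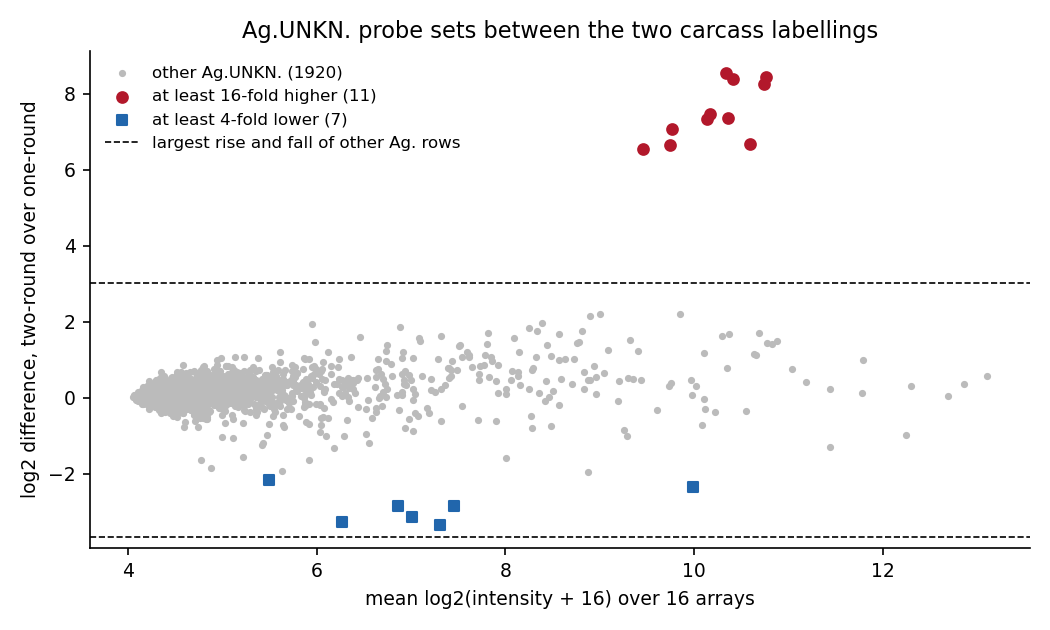
Log2 difference between two-round and one-round carcasses for all 1938 Ag.UNKN. probe sets against their mean log2(intensity + 16) over the 16 arrays. The 11 probe sets at least 16-fold higher (red circles) stand at 6.55 to 8.53, far above the largest rise of any probe set on the arms (upper dashed line, 3.01), while the 7 at least 4-fold lower (blue squares) stay within the range of the arms (lower dashed line, -3.66).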

How the data were processed

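The deposited table holds linear-scale intensities of 22761 probe sets on each of 16 arrays. The authors used GCOS 1.4, the array maker's scanner and expression software, per the submitters' processing notes, and how probes were summarised, background-corrected and scaled is not given in the sources used here, nor is a scan date or other batch. All values were above 0, and no further normalization was applied. Members were the IDs beginning with Ag.UNKN., and the malaria parasite probe sets (prefix Pf., 4502) gave the background of each array. The model (limma 3.58.1, R 4.3.3; 12 residual degrees of freedom with a moderated variance) was fitted on log2(intensity + 16), a scale that understates the change of dim probe sets, and p-values were adjusted over all 16884 Ag. probe sets per comparison. Named are, per comparison, the 2 largest rises and 2 largest falls among called probe sets with no overlap between arrays, each with its cluster partners, and per tissue the leading probe set of each pattern. The start of the ID alone set the members, but this part of the array and the lists were chosen with earlier results of these data known. Same-numbered arrays of the 2 carcass groups deviated together (correlations of 0.206 to 0.477 in 4 of 4 pairs), and those of no other 2 groups did in every pair. Precision is limited by the number of arrays, 4 per group, and p-values measure the spread between them. Alternatives covered pseudocount, scaling, filter, replicate block, variance prior, groups in the fit, background percentile, shared-sequence members and each array in turn.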

Additional observations from a re-analysis of the deposited data

Results flagged for a closer look

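Of 72 groups of 4 values examined, 7 had an array that stood apart from the other 3. In these 7, the gap to the nearest array, as a share of the group's range, was above Dixon's 95% critical value. Chance flags about 1 group in 20. Gap and range were taken on the log scale of the model, while the values printed below are plain intensities. Shares on plain intensities would differ and were not tested. At Ag.UNKN.58.0_CDS_at the gap was 0.997 of the range in heads, with 827.5 in replicate 1 and 1731 to 1735 in the others, and 0.886 in one-round carcasses, with 3123 in replicate 3 and 1841 to 1955 in the others. Head replicate 1 was also low at Ag.UNKN.2231.0_s_at (0.839, at 2788 and 5328 to 6032 in the others) and high at Ag.UNKN.193.0_CDS_s_at (0.845, at 130 and 39.1 to 48.09). One-round carcass replicate 3 was also high at Ag.UNKN.2219.0_s_at (0.851, at 509.9 and 342.6 to 363.6). Head replicate 4, whose source name speaks of carcasses, was high at Ag.UNKN.7.0_CDS_at (0.873, at 15.26 and 3.056 to 4.289), a probe set that is bright in carcasses. Among others bright in carcasses, it measured 74.26 at Ag.UNKN.848.0_CDS_s_at, the lowest head. It measured 14.74 at Ag.UNKN.68.0_CDS_at (14.48 to 23.19 in the other heads) and 0.338 at Ag.UNKN.2560.0_at (0.279 to 0.58). Whether this array held heads or carcasses was not tested. Hemocyte replicate 2 was high at Ag.UNKN.2560.0_at (0.847, at 7.856 and 0.284 to 1.266), with all 4 arrays below background.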

How the results depend on the processing

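The 23 differences of named probe sets that were repeated kept their direction in every alternative run, and 368 of 372 repeats kept the call, with adjusted p up to 0.014; the exceptions were the pseudocount of 64 for Ag.UNKN.370.0_CDS_at (0.70 over carcasses, 0.68 over heads) and Ag.UNKN.193.0_CDS_s_at (-0.88 for hemocytes over heads, 0.80 for heads over carcasses), under the 2-fold limit. Of 289 repeated counts 255 stayed within 1.5 times. With a pseudocount of 1, calls for hemocytes over carcasses were 144 higher and 103 lower, for hemocytes over heads 154 lower, for heads over carcasses 88 higher and 47 lower, for 2 rounds over 1 round 150 higher, and 47 were higher in heads than in both other tissues. With 64 they were 36 and 34, 47 and 38, 18 higher, and 43 and 12, with 27 higher in hemocytes and 13 higher in heads than in both. Quantile normalization gave 43 higher and 40 lower calls for 2 rounds over 1 round. Leaving out members ending in _s_at or _x_at, which shortens the list, gave 42 and 31, 33 and 43, 14 lower, and 44 and 7 calls, 2 at least 16-fold higher after 2 rounds, 25 and 10 higher than both in hemocytes and carcasses, and 334, 311 and 308 above background in hemocytes, two-round and one-round carcasses. Without single arrays, the tissue-only counts ranged over 4 to 7 in heads (7 without head replicate 4) and 3 to 7 in carcasses (7 and 6 without two-round carcass replicates 3 and 4). Leaving out an array can only keep or raise these counts. The replicate block changed no call count by over 1.5 times, with 75 higher and 23 lower for 2 rounds over 1 round, and 77 and 23 with the block in the carcass pairs alone, an alternative chosen after seeing the data. Signal over background limits the list, since 1065 members (55%) were above background on at least 4 arrays.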

Other observations

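Of the Ag.UNKN. probe sets missing from a single two-round tissue most were missing from hemocytes, as was so for the other Ag. probe sets (10 members against 127 others). Below background on all 4 hemocyte arrays and above it on all 8 head and two-round carcass arrays were 0.516% of the members, against 0.85% of the others. For heads 0 members showed this pattern, against 23 others (0.154%), and for carcasses 1 did (0.0516%), against 10 others (0.0669%). The one in carcasses, Ag.UNKN.1067.0_CDS_at, was at 21.58 ± 5.11 in hemocytes, 27.11 ± 10.84 in heads and 9.868 ± 3.749 in two-round carcasses. Among the 10, Ag.UNKN.1126.0_CDS_s_at measured 9.762 ± 1.432 in hemocytes, against 173.7 ± 47.92 in heads and 104.6 ± 39.39 in two-round carcasses. Ag.UNKN.177.0_CDS_s_at measured 6.335 ± 1.944 in hemocytes, 138.9 ± 71.49 in heads and 44.79 ± 19.41 in two-round carcasses, and was also called higher in heads than in carcasses. Ag.UNKN.177.1_a_at, with the same number, was above background on all 16 arrays, so hemocytes included. Its log2 differences in hemocytes were -2.25 to carcasses and -3.207 to heads. These probe sets were named after their values were seen.

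As a description over the 16 arrays, 15 other Ag.UNKN. probe sets correlated above 0.9 with Ag.UNKN.1005.1_at, the one highest in hemocytes, 10 with Ag.UNKN.136.1_CDS_a_at, highest in heads, and 8 with Ag.UNKN.68.0_CDS_at, highest in carcasses. Above 0.95 these had 4, 0 and 3. Ag.UNKN.2433.0_s_at, one of the 11 that were at least 16-fold higher after 2 rounds, had 18 others above 0.9 and 10 above 0.95. Its highest correlation was 0.998. The correlation also runs over the labelling difference by which the 11 were picked. All of these share arrays and labelling.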
